A study of Rattus norvegicus with 4 samples.

Results

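Complement is a set of plasma and tissue proteins that coat microbes and damaged cells, attract leukocytes and open pores in membranes. The classical pathway runs through the proteases C1r and C1s to C2, and the alternative pathway through factors B and D. Both meet at C3, and regulators such as factor I, C1 inhibitor and decay-accelerating factor hold the cascade in check. The liver supplies most of the plasma proteins, but epithelial cells, fibroblasts and macrophages also make components locally, and gingival fluid carries them into the crevice beside the tooth.

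The genes described here were C3, C2, C1r, C1s, Cfb, Cfd, Cfi, Serping1 and Cd55, a list of 9 complement components and regulators that leaves out the C1q chains. Members were the probe sets of the array whose annotation gave 1 of these symbols and no other. The rule found 8 probe sets of 7 genes, among 31042 probe sets tested. C2 and Cfb had no probe set of their own, because the 4 probe sets annotated to either carried both symbols. Their values are given below without assigning them to one of the genes.

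The samples were 2 of peri-implant epithelium, which lines the soft tissue around a titanium alloy implant, and 2 of junctional epithelium, which seals the gingiva to the tooth. All came from male Sprague Dawley rats that lost an upper molar to extraction and received an implant at 4 weeks of age. Tissue was taken 4 weeks later from 20 rats, and epithelium was cut out of frozen sections by laser microdissection. The labels give the same extraction and implant treatment for the junctional samples, and do not say how many animals each array holds, so the p-values measure only the spread between these arrays, which may be technical.

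Arrays of 1 epithelium correlated at 0.911 to 0.914 (Pearson's r over probe sets, a description since these are no replicates), and arrays of different epithelia at 0.882 to 0.887. The background level was set at 6.42 log2, the maximum that any array showed for 27 control probe sets of bacterial genes, and 54.6% to 56.8% of probe sets exceeded it. All 11 measured markers of epithelium, such as Krt5 and Krt14, exceeded it on all 4 arrays, and so did all 10 fibroblast markers, so transcripts typical of connective tissue were measured on every array. Odam, Amtn and Scpppq1, which define junctional epithelium, were not matched to a probe set, and Ambn and Amelx lay below background. With 2 arrays a group, their number limits how precise any value below can be.

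Transcripts of C3, Cfi and C1r were higher in peri-implant than in junctional epithelium. The central component C3 was 3.22-fold higher and the classical pathway protease C1r 1.93-fold. Factor I, the protease that inactivates C3b, was 12.0-fold higher with its junctional signal below background raised to that level. C1s and Serping1 were also higher on both peri-implant arrays than on either junctional array but did not pass the test. Cd55 and Cfd lay near or below background, and their arrays overlapped between the epithelia.

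The test was limma on the log2 signals of all probe sets, with an intensity trend and a robust prior for the variance, Benjamini-Hochberg adjustment over all probe sets and a threshold of 0.05. Of the 8 member probe sets 3 rose, 0 fell and 5 did not pass, while over all probe sets 1470 (4.74%) rose and 1292 (4.16%) fell. Of the 15185 probe sets above background on all 4 arrays, 7.49% rose. With limma's default prior, which ignores signal level, 0 of 31042 probe sets passed (0%), members included. At an unadjusted p below 0.05 that fit took 4 member probe sets (C3, Cfi, C1r and Serping1), all higher, and 9.17% of all probe sets as higher. In 5 of the 8 member probe sets both peri-implant arrays exceeded both junctional arrays, and in 0 both lay lower. Over all probe sets the shares were 27.8% and 25.4%. The median difference was 0.64 over the 8 member probe sets and 0.02 over all probe sets. The members were chosen with results of these arrays known, so these counts are a description.

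**Figure D1:**
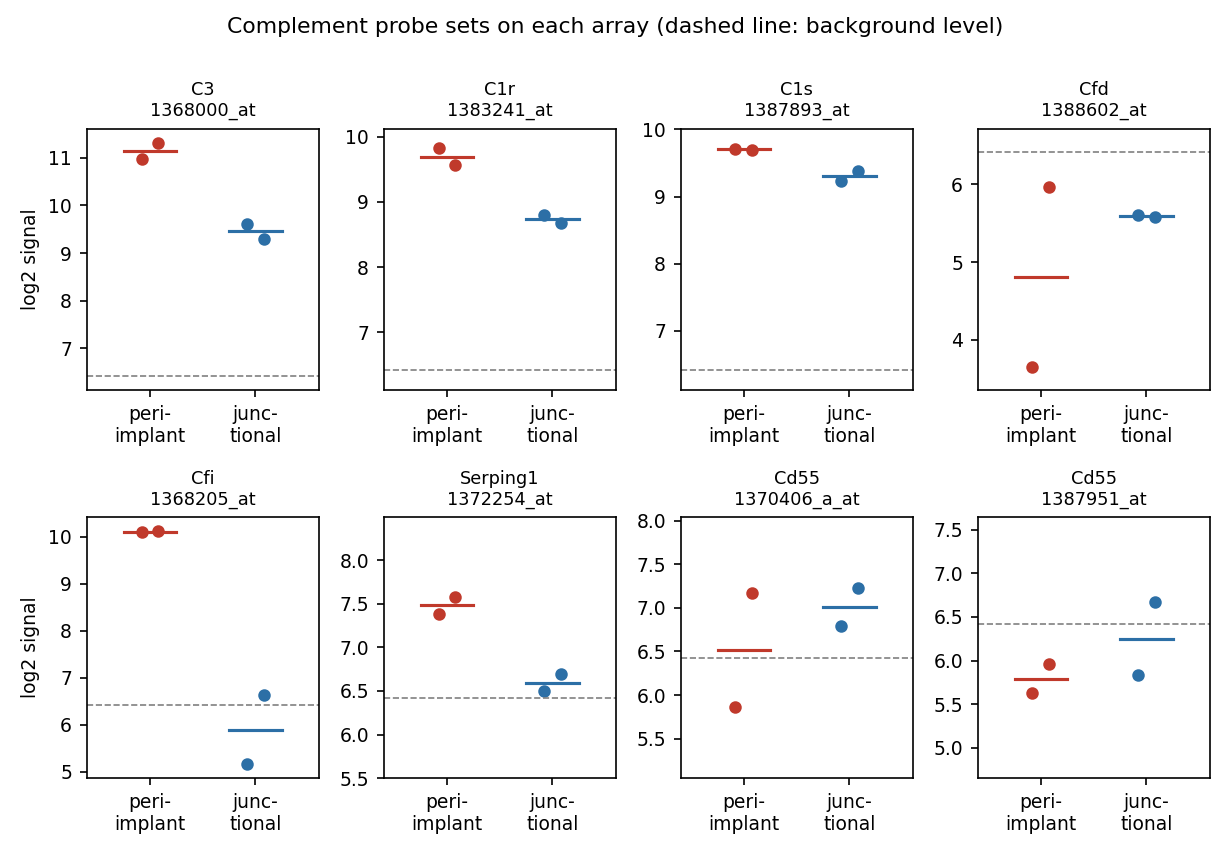
Log2 signal of the 8 complement probe sets on each array, peri-implant (red, left) and junctional (blue, right), with points for arrays, short lines for the mean of the 2 arrays and a dashed line at the background level of 6.42. The red points stand above the blue ones for C3, C1r, C1s, Cfi and Serping1, while those of Cfd and both Cd55 probe sets overlap. Each panel has its own vertical axis.

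C3 is the protein on which all activation routes converge, and its cleavage yields the opsonin C3b and the anaphylatoxin C3a. Its probe set 1368000_at measured log2 signals of 10.97 and 11.32 in peri-implant samples and of 9.62 and 9.29 in junctional samples. The lower peri-implant array exceeded the higher junctional array, and all 4 lay well above background. Group means were 11.14 ± 0.24 and 9.46 ± 0.23 (peri-implant and junctional, SD, n = 2 each), a difference of 1.69 on the log2 scale (95% interval 1.34 to 2.04, adjusted p = 0.000268 by limma with an intensity trend). Without junctional replicate 1 or 2 the limma adjusted p was 0.056 and 0.0736, and without peri-implant replicate 1 or 2 it was 0.0205 and 0.042. In the rat assembly GRCr8 this protein-coding gene lies on chromosome 9 from 2174412 to 2201339.

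C1r and C1s are paired serine proteases that sit on C1q and start the classical pathway, C1r by activating C1s. C1r (1383241_at) had signals of 9.82 and 9.56 in peri-implant samples and of 8.80 and 8.68 in junctional samples. The groups did not overlap, and the difference of 0.95 (95% interval 0.57 to 1.33) passed the test with an adjusted p = 0.00958 by limma. The call was lost when any 1 array was left out, with limma adjusted p of 0.121 and 0.0765 without peri-implant replicate 1 and 2, and 0.139 and 0.147 without junctional replicate 1 and 2. C1s (1387893_at) had 9.71 and 9.70 in peri-implant samples against 9.23 and 9.37 in junctional samples. Its arrays did not overlap either, but the difference of 0.40 (unadjusted 95% interval 0.07 to 0.73) did not pass, with an adjusted p = 0.124 by limma. The genes are neighbours on chromosome 4 of GRCr8, C1r from 159099013 to 159109770 and C1s from 159116549 to 159128736, with 6778 bases and 0 annotated genes between them.

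The chains of C1q, onto which C1r and C1s assemble, are typical of macrophages. C1qc rose, with signals of 10.19 and 10.10 in peri-implant samples and 9.27 and 9.15 in junctional samples (adjusted p = 0.00395 by limma). C1qa and C1qb differed by 0.73 and 0.93 and did not pass (adjusted p = 0.0585 and 0.0598 by limma).

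Factor D, encoded by Cfd, is the serine protease of the alternative pathway that cleaves factor B, and is also known as adipsin from fat cells. Its probe set 1388602_at lay below background on all 4 arrays, with 3.65 and 5.97 in peri-implant samples and 5.60 and 5.58 in junctional samples. No fold is given for Cfd, because both epithelia were below background. All 5 adipocyte markers, Adipoq and Plin1 among them, were below background on all arrays too. Cfd lies on chromosome 7 of GRCr8 from 10463773 to 10465496.

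C2 and factor B are homologous proteases, C2 of the classical and factor B of the alternative pathway, and their genes adjoin on chromosome 20 of GRCr8. C2 runs from 3944722 to 3975006 and Cfb from 3975271 to 3981138, a gap of 264 bases. Of the 4 probe sets annotated to both, 1383391_a_at was above background on every array, with 8.45 and 8.65 in peri-implant samples and 8.70 and 7.92 in junctional samples. Probe set 1383392_at had 8.21 and 6.27 in peri-implant samples against 7.82 and 8.48 in junctional samples, with a peri-implant SD of 1.37. The groups overlapped in both. Probe set 1393219_at straddled the background level and 1389470_at lay below it on all arrays. Differences ran from -0.91 to 0.25, in both directions, and the adjusted p of the 4 by limma from 0.336 to 0.922. Neither gene's own level can be read from these values.

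**Figure D2:**
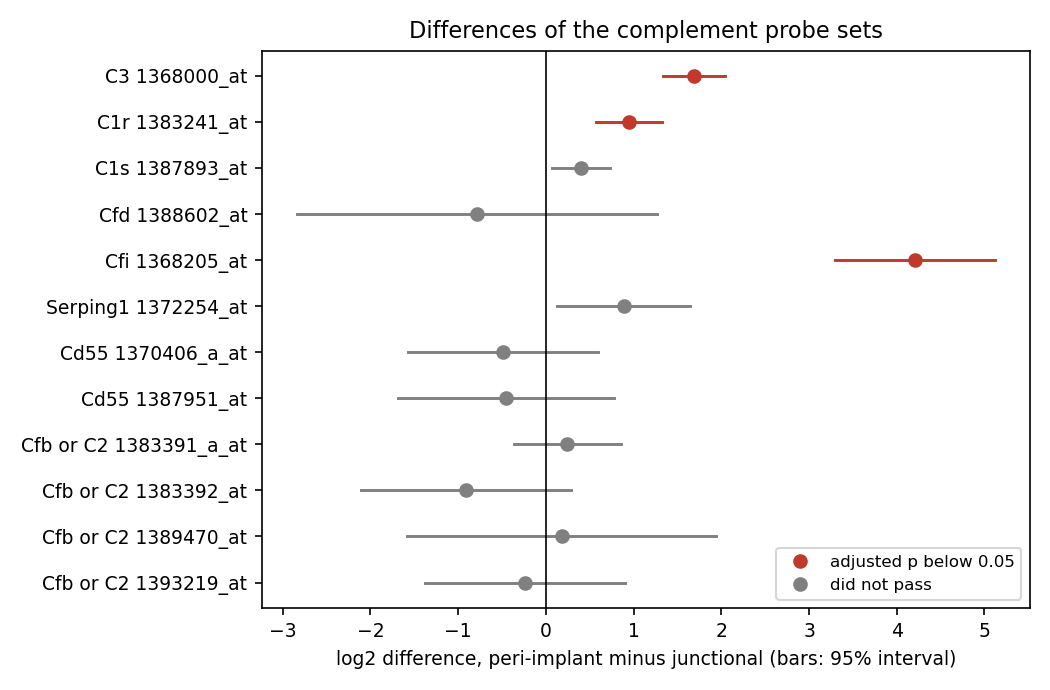
Log2 difference, peri-implant minus junctional epithelium, for the 8 member probe sets and the 4 probe sets annotated to both Cfb and C2, with bars for the unadjusted 95% interval of the fit with an intensity trend. Red marks an adjusted p below 0.05, reached by C3, C1r and Cfi. The bars of C1s and Serping1 stay above 0 although these did not pass after adjustment, and those of Cfd, Cd55 and the shared probe sets span 0.

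Among the regulators, factor I (Cfi) is a serine protease that cleaves C3b and C4b with the help of cofactors. Cfi (1368205_at) had signals of 10.09 and 10.12 in peri-implant samples and of 5.17 and 6.63 in junctional samples. Both peri-implant arrays were far above background, while 1 of 2 junctional arrays lay below it and the other just above. The fitted difference was 4.21 (95% interval 3.30 to 5.12, adjusted p = 0.000347 by limma), but a signal below background has no reliable size. With the low array raised to 6.42 the difference was 3.58, or 12.0-fold, which is an estimate and not a lower limit. Without peri-implant replicate 1 or 2 the limma adjusted p was 0.0524 and 0.0636, and without junctional replicate 1 or 2 it was 0.0158 and 0.0094. Cfi lies on chromosome 2 of GRCr8 from 221062206 to 221104790.

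Serping1 encodes C1 inhibitor, the serpin that blocks C1r and C1s. Its probe set 1372254_at had 7.39 and 7.58 in peri-implant samples and 6.50 and 6.69 in junctional samples, with the junctional arrays only just above background. The difference of 0.89 was larger than the spread of either group (SD 0.14 and 0.13), but did not pass (unadjusted 95% interval 0.13 to 1.64, adjusted p = 0.138 by limma). The gene lies on chromosome 3 of GRCr8 from 90249410 to 90259299.

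Cd55, decay-accelerating factor, is a membrane protein that breaks up C3 convertases on host cells. Probe set 1370406_a_at had 5.87 and 7.17 in peri-implant samples and 6.79 and 7.22 in junctional samples. Probe set 1387951_at had 5.63 and 5.96 in peri-implant samples and 5.83 and 6.67 in junctional samples. The groups overlapped in both, 4 of the 8 signals lay above background, and the differences of -0.49 and -0.46 did not pass (limma adjusted p = 0.591 and 0.671). Their intervals ran from -1.57 to 0.59 and from -1.69 to 0.78, so neither direction was shown. Cd55 lies on chromosome 13 of GRCr8 from 44409574 to 44438913.

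**Figure D3:**
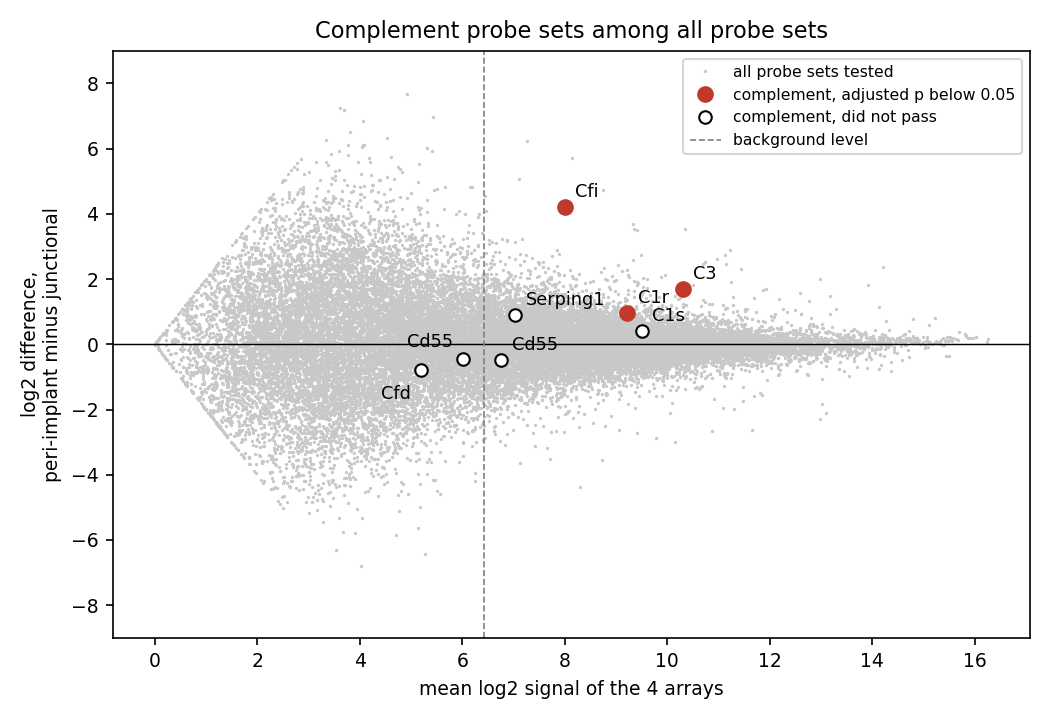
Log2 difference, peri-implant minus junctional epithelium, against the mean log2 signal of the 4 arrays for all 31042 probe sets tested (grey) and the 8 member probe sets (red past the test, open circles not). Differences scatter most to the left of the dashed background level of 6.42, where Cfd and 1 Cd55 probe set lie, and Cfi and C3 stand near the upper edge of the cloud for their signal.

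The regions before the annotated starts of the 3 genes that rose are shown for reference. Of the 9 listed genes 5 matched an entry of the RefSeq promoter table (GRCr8). Each sequence is the 250 bases before the start, 5′ to 3′ on the gene's strand, with capitals for every match to the motifs searched. C3 is from chr9:2201340-2201589 (minus strand), C1r from chr4:159098763-159099012 (plus strand) and Cfi from chr2:221063066-221063315 (plus strand), the last before a start that lies within the annotated span of the gene.
C3: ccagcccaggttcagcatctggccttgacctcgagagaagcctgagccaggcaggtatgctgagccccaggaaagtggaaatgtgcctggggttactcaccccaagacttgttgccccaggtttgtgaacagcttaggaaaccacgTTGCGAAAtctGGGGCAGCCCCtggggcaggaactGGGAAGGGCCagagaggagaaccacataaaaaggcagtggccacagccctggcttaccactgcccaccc
C1r: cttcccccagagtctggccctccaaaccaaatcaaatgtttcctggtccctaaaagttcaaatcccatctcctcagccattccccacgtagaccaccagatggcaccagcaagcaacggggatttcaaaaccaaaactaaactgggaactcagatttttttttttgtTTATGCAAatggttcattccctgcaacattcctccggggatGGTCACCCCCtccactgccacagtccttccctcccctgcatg
Cfi: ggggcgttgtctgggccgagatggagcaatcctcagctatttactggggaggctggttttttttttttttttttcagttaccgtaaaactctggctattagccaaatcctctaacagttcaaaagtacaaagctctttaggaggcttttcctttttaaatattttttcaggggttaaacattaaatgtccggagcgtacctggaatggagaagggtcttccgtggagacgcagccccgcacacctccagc

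Motifs of 4 kinds, those of factors active in inflammation, were searched on both strands. The C/EBP motif (TTGC, any 2 bases, AA) stands in 9.22% of the 33469 promoters of the same length. It matched C3 once, at 104 to 97 bases before the start (TTGCGAAA), and C1r once on the opposite strand, at 83 to 76 bases (TTATGCAA). The NF-kappaB motif (GGG, any 5 bases, CC) stands in 42.3% of all promoters, and matched C3, where overlapping matches form the run GGGGCAGCCCC next to the C/EBP match, as well as C1r and Cd55. The genes searched were those with a promoter entry, C3, C1r, Cfi, Cfd and Cd55, and none of them matched the other motifs. These were the GAS motif (TTC, any 3 bases, GAA, in 7.67% of promoters) and the ISRE motif (GAAA, any 2 bases, GAAA, in 3.41%). C1s, Serping1, C2 and Cfb had no entry and were not searched for any motif. Cfi and Cfd held 0 matches to any of the motifs. A match describes the letters and not a bound site.

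Of 36 further complement genes 29 were measured, and by their brightest probe set 0 rose, 1 fell and 28 did not pass, with 14 below background on all arrays. Over all 14217 genes, by their brightest probe set in the same fit, 6.6% rose and 4.8% fell. The median difference of the 29 genes was 0.23, and 0 once every signal under 6.42 was set to that level. The member that fell was Clu, encoding clusterin, a fluid-phase inhibitor of the membrane attack complex. Clu had 11.52 and 11.74 in peri-implant samples and 12.05 and 12.13 in junctional samples (limma adjusted p = 0.0202), and both of its probe sets passed. The terminal components C5, C6, C8a, C8b and C9, which build the pore, were all below background.

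Membrane regulators, receptors and other components above background did not pass. Cd59, which blocks pore assembly, had 12.64 and 12.48 in peri-implant samples and 12.83 and 12.73 in junctional samples (limma adjusted p = 0.142). Cr1l, the rodent regulator Crry that acts on C3b and C4b, had 13.09 and 13.60 in peri-implant samples against 13.29 and 12.58 in junctional samples, and its arrays overlapped. Itgax, a chain of the complement receptor on myeloid cells, had 8.26 and 8.51 in peri-implant samples and 7.76 and 6.93 in junctional samples (limma adjusted p = 0.0713). C1qbp, a mitochondrial protein that can bind C1q, and C8g, the gamma chain of C8, differed by 0.42 and -0.50 and did not pass (limma adjusted p = 0.0864 and 0.162). C4a and C4b were not analysed here.

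**Figure D4:**
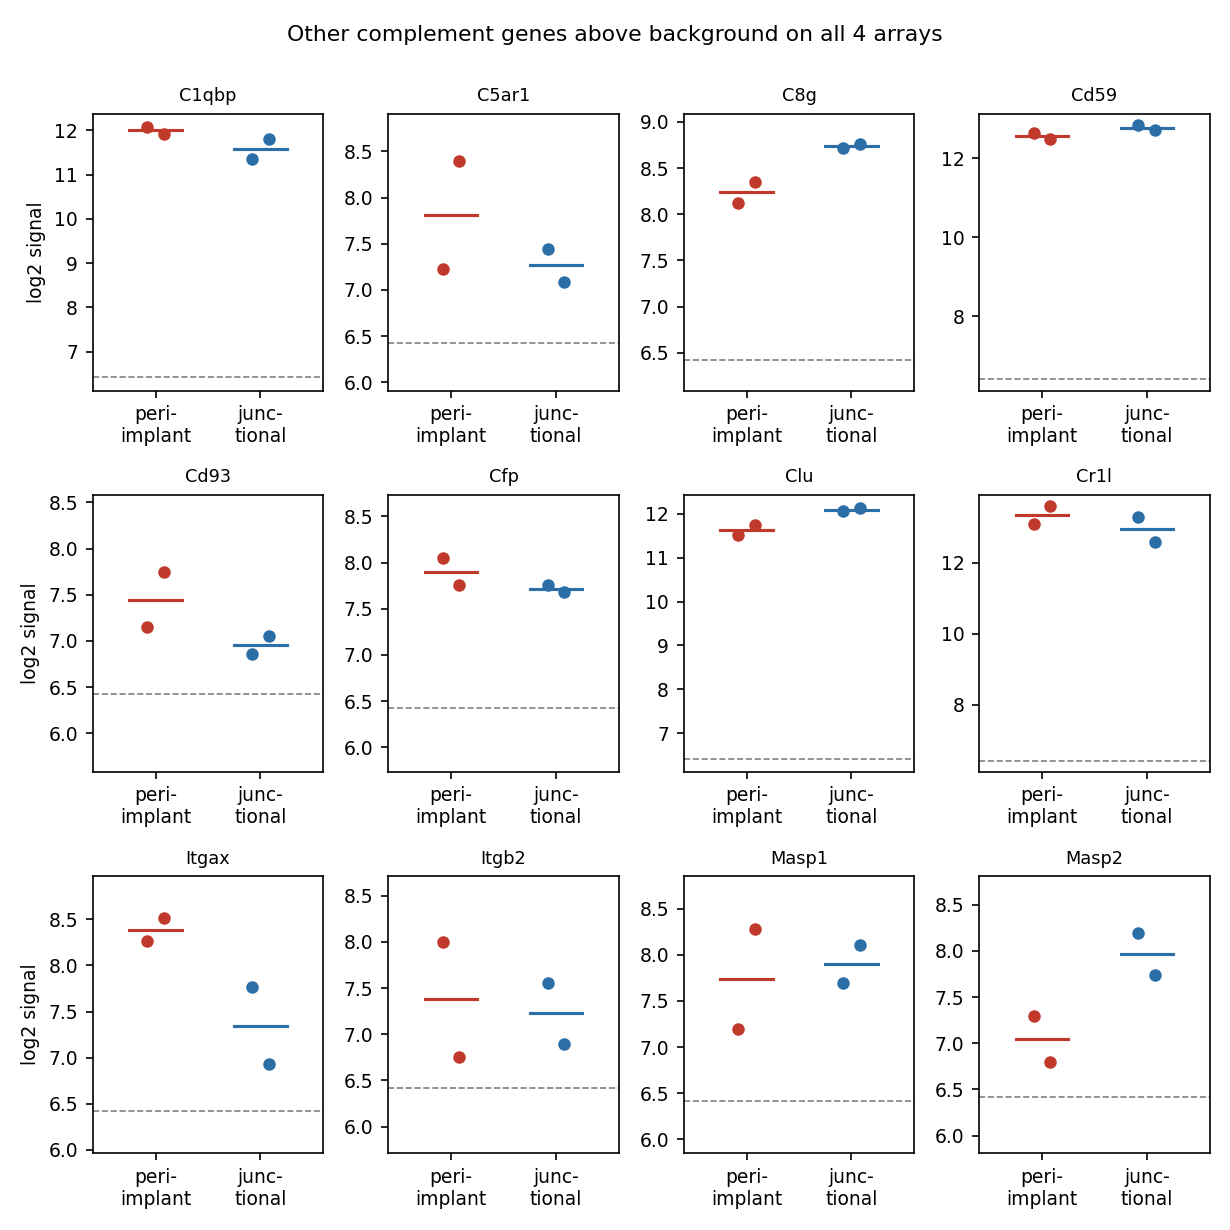
Log2 signal of the 12 other complement genes above background on all 4 arrays, by their brightest probe set, peri-implant (red, left) and junctional (blue, right), with points for arrays, lines for means and the background level dashed. Clu, Masp2, C8g and Cd59 stand lower on both peri-implant arrays, and Cfp, Itgax, Cd93 and C1qbp higher. Of these only Clu passed the test. The arrays of Cr1l, Masp1, C5ar1 and Itgb2 overlap. Each panel has its own vertical axis.

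Cytokines and transcription factors known from other systems to raise complement transcription were counted beside the members. Of 13 listed genes 11 were measured, and 4 rose and 0 fell, beside 6.6% and 4.8% of all genes. Il1b, encoding interleukin-1 beta, had 13.38 and 13.36 in peri-implant samples and 11.83 and 11.79 in junctional samples (limma adjusted p = 3.76e-06). Nfkb1, an NF-kappaB subunit, had 10.98 and 10.96 in peri-implant samples and 9.74 and 9.81 in junctional samples (limma adjusted p = 0.000277). Cebpb, a C/EBP factor, differed by 0.81 (limma adjusted p = 0.00283), and the remaining gene that rose was Cebpd. Rela and Irf1, above background on all 4 arrays, differed by 0.05 and 0.01 and did not pass. Tnf, Osm and the brightest probe set of Stat3 were also above background on all 4 arrays without passing. The other probe set of Stat3 passed the test. An effect of any of these genes on the complement members was not tested. Ifng and Il6 were below background on all arrays.

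Markers of leukocytes moved in the same samples, where 6.6% of all genes rose and 4.8% fell by their brightest probe set. Of 12 measured macrophage markers, which include the C1q chains, 5 rose and 1 fell, and their summed linear signal ran from 8174 to 9014 on peri-implant and from 4973 to 5298 on junctional arrays. Laptm5 and Csf1r rose by 1.65 and 1.42. Mrc1, below background on both peri-implant arrays, was 2.22-fold lower with those signals raised to background. Of 9 measured neutrophil markers 5 rose and 0 fell, and their summed signal ran from 95657 to 109199 on peri-implant and from 44384 to 44487 on junctional arrays. Most of that sum came from S100a8 and S100a9, and the other 7 markers summed to 8924 to 9130 on peri-implant and 7120 to 7526 on junctional arrays. Of these 7 markers 3 rose. The brightest of them, Ly6g6c, is a different gene from the neutrophil antigen Ly6g, so the sum of these 7 is not specific to neutrophils. Ly6g6c did not pass, with 11.87 and 11.76 in peri-implant samples and 12.04 and 11.85 in junctional samples. S100a9, which keratinocytes also make, and Cxcr2 rose by 2.37 and 1.42, and Fcgr3a rose as well. The granule genes Mpo and Elane, and Ngp, Retnlg and Cd177, had no matching probe set. In neither list did a measured marker stand at 0.

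Fibroblasts are a known source of C1r, C1s and C1 inhibitor. Of 10 fibroblast markers 3 rose and 1 fell, beside 6.6% and 4.8% of all genes. With none at 0, their summed signal was 55271 to 55517 on peri-implant and 47581 to 47868 on junctional arrays. Postn and Thy1 rose by 1.00 and 0.75, and Pdgfra fell by 1.04. Of 11 measured epithelial markers 3 rose and 1 fell, with a summed signal of 265378 to 309532 on peri-implant and 235715 to 244171 on junctional arrays. Krt17 and Krt15 rose by 1.83 and 0.42, and Krt7 fell by 0.56. Of 7 measured endothelial markers 0 rose and 0 fell. Tek, Vwf and Emcn were lower on both peri-implant arrays, by differences of -0.98, -0.84 and -0.69, Tie1 and Esam higher, by 0.87 and 0.25, and Kdr and Pecam1 overlapped. The part of these cells in the complement differences was not tested, and in such tissue samples more cells of a type and more RNA per cell cannot be told apart.

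The remaining lists lay mostly below background. Of 8 T and NK cell markers 1 rose (Cd2), beside 6.6% of all genes, and 4 were below background on all arrays. On both peri-implant arrays 5 were higher than on either junctional array, beside 27.8% of all probe sets. Among these 5, Klrd1 was below background on all arrays. Of the 8 markers 0 were above background on all 4 arrays. Their summed signal ran from 632 to 759 on peri-implant and from 230 to 328 on junctional arrays. It includes signals below background, which have no reliable size. All 4 measured B and plasma cell markers and all 5 measured salivary acinus markers were below background on every array, as were 4 of 5 mast cell markers, and 0 members of the B and plasma cell, salivary and mast cell lists passed.

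**Figure D5:**
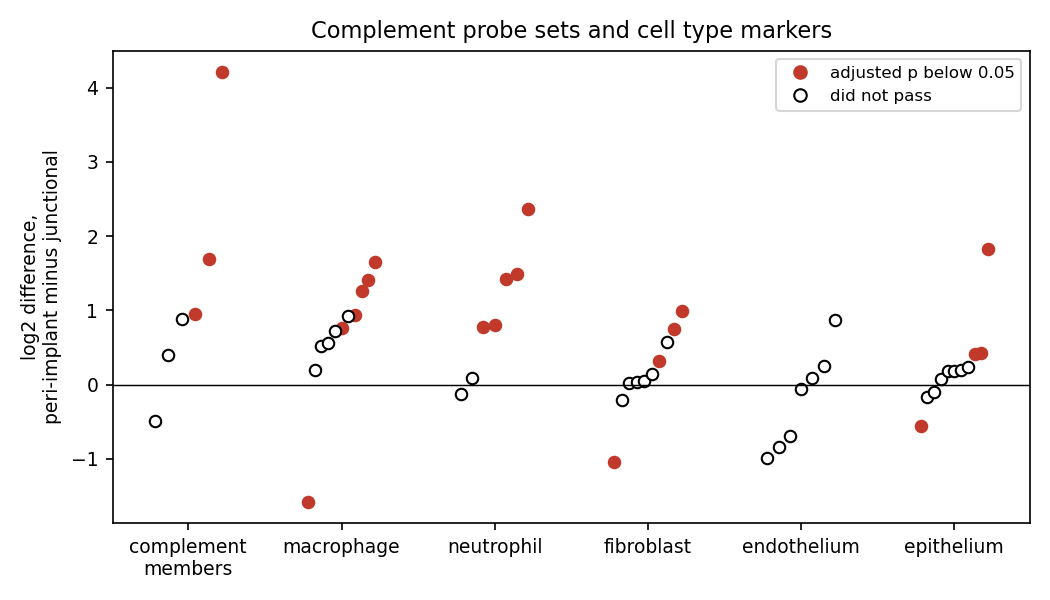
Log2 difference, peri-implant minus junctional epithelium, of the 6 complement probe sets above background on at least 2 arrays and of the marker genes that met the same limit, each point a probe set or gene (red past the test, open circles not). Most macrophage and neutrophil markers lie above 0, and fibroblast, endothelial and epithelial markers lie on both sides.

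The probe sets most like C3 and Cfi were sought by Euclidean distance between centred log2 signals over the 4 arrays. Candidates were the 13992 probe sets with 1 gene symbol, other than the complement members, that were above background on at least 2 arrays. The closest to C3 were LOC102552343, Gbp7, Pstpip2, Pds5b and Fn1, at distances of 0.089 to 0.137. The closest to Cfi were Gpr84, Tagln, Sh2d3c, S100a7l2 and Cxcl9, all below background on both junctional arrays, where signals have no reliable size, so no order among them is read. Pstpip2, Pds5b and Fn1 lay below background on both junctional arrays as well, so they and the genes closest to Cfi met the limit only through their peri-implant arrays. Over 4 arrays in 2 groups, such likeness reflects mainly the difference between the groups.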

How the data were processed

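The deposited values are log2 signals, 1 column per array. The labels name neither the software nor the normalization that the authors used. Linear values have a mean near 500.19 on every array after trimming 2% at each end. Per the labels' protocols, RNA was amplified and biotin-labelled before hybridization. No value was normalized again.

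The 57 control probe sets were set aside. Of the 31042 tested, 20826 had 1 symbol in the platform annotation, 436 several and 9780 none. Genes in lists were matched by updated symbol or synonym, and represented by their brightest probe set. Named genes were, per list, those past the test by size, then by signal (up to 6 further complement genes, otherwise up to 3), and genes outside this rule were named after their values were seen.

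limma 3.58.1 in R 4.3.3 was used (lmFit, eBayes with trend and robust prior, two-sided, 2 residual degrees of freedom). The trend was chosen because the median replicate SD was 1.44 at mean signals up to 3 and 0.078 above 11. An exact permutation test of 2 arrays against 2 cannot go below p = 0.333. On simulated arrays the trend fit made more false calls than its threshold allows. By signal level only unadjusted p were counted, in arrays simulated without changes. Their excess of small values lay chiefly below background and at the brightest signals. Members, lists, motifs and the trend fit were chosen with earlier results of these data known.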

Additional observations from a re-analysis of the deposited data

How the results depend on the processing

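The direction of C3, Cfi, C1r, C1s and Serping1 was positive under all 12 alternatives tried, most of which could not have reversed it. Both peri-implant arrays exceeded both junctional arrays in these probe sets, so leaving out 1 array keeps the sign. The default prior, the filter on dim probe sets, the choice of probe set per gene and the replicate block leave the difference itself unchanged. The variance prior decided the calls. With the default prior 0 members and 0 of 31042 probe sets passed, and the adjusted p of C3, Cfi and C1r was 0.17, 0.17 and 0.209 by limma. The other alternatives that kept all 4 arrays (quantile normalization, centring on medians, signals raised to background, a filter on dim probe sets, the brightest or mean probe set per gene, and the replicate block) left 3 members past the test. Leaving out each array in turn left 1 member past the test every time, Cfi without a junctional and C3 without a peri-implant array. The median over the members then ran from 0.56 to 0.68, and the count of all probe sets past the test from 73 to 353, against 2762. That count was 1810 with the brightest and 1422 with the mean probe set per gene, where fewer features are tested, and 4202 with the replicate block. The labels do not say whether same-numbered arrays of the 2 epithelia share animals or a batch. The correlation of their deviations was 0.05 over 16993 probe sets above background. With 2 arrays a group, this value cannot decide whether they were paired. The block moved no member across the threshold. Cd55 (1370406_a_at) and Cfd, which did not pass, ran from -1.14 to 0.16 and from -1.94 to 0.37 when 1 array was left out, positive without peri-implant replicate 1. Signals near background limit Cfd, Cd55, Serping1 and the junctional level of Cfi.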
